A study of Mus musculus with 4 samples.

Results

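The factors described here are 10 mouse genes that encode neuronal splicing and RNA-binding proteins. They are the polypyrimidine tract binding proteins Ptbp1 and Ptbp2, called the early factors, and the late neuronal factors Rbfox1, Rbfox2, Rbfox3, Elavl2, Elavl3, Elavl4, Nova1 and Nova2. Each was taken through the probe set that the platform annotation assigns to that gene symbol alone, and where a gene had several, through the one with the highest mean over the 4 arrays. All 10 were measured, out of 19938 genes with such a probe set.

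Gene expression had been measured on Affymetrix Mouse Gene 1.0 ST arrays, with 1 array for each tissue sample. The samples were a 5-month PtchLacZ/+ medulloblastoma, medulloblastomas from Math1-Cre;SmoM2 animals of 2 months and of 1 month, and the whole cerebellum from a 2-month wild-type animal. All mice had a mixed C57BL/6 and C3H background, and the labels do not say how many animals a sample came from, so the spread between tumours may be partly technical. Medulloblastoma, a cerebellar tumour, arises in these mice spontaneously under Hedgehog signalling. PtchLacZ/+ mice carry a lacZ allele of Ptch1, the receptor that holds the signal transducer Smoothened in check, and SmoM2 is an active form of Smoothened, switched on by Cre recombinase under the Math1 (Atoh1) promoter of the granule cell lineage. PtchLacZ/+ and SmoM2 tumours also differ in age, so the effects of age and genotype cannot be told apart.

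Progenitor cells and mature neurons splice many of the same transcripts differently. PTBP1 binds pyrimidine-rich RNA and represses neuronal exons in progenitors and non-neuronal cells. Among its targets is an exon of Ptbp2, whose skipping leads to decay of the Ptbp2 transcript, and in the mouse brain PTBP2 is the form of newly born neurons and declines as they mature. Rbfox proteins bind a short conserved RNA element beside alternative exons and regulate exons of ion channel and synaptic genes, and RBFOX3 is the antigen NeuN, used to mark neuronal nuclei. The neuronal Elav-like proteins (HuB, HuC and HuD) bind AU-rich RNA and act on both splicing and transcript stability, and the Nova proteins regulate exons of inhibitory synapse genes. The arrays give 1 level per gene, summed over its exons, so exon inclusion was not measured.

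The sequence before the start site is shown for both early factors, and for Rbfox1 and Rbfox3, the late factors that fell, so that the letters before the starts of early and late factors can be compared. The windows are the 250 bases before the RefSeq start site on GRCm38.p6, 5′ to 3′ on the strand of the gene. Capitals mark the motifs CACGTG, the E-box read by Myc proteins, and CAGCTG, an E-box read by Atoh1 and related factors, each of which reads the same on both strands. Ptbp1 lies at chr10:79854182-79854431 (plus strand), Ptbp2 at chr3:119783389-119783638 (minus strand) and Rbfox3 at chr11:118761042-118761291 (minus strand). The 2 annotated starts of Rbfox1 lie at chr16:5884543-5884792 and chr16:7069585-7069834 (plus strand), 1185 kb apart, and the array level does not tell transcripts of one start from those of the other.
Ptbp1: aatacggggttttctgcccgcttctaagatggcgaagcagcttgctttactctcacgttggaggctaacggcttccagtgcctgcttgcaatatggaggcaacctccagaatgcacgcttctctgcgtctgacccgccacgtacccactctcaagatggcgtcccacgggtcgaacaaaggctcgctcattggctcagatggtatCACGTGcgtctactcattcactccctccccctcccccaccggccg
Ptbp2: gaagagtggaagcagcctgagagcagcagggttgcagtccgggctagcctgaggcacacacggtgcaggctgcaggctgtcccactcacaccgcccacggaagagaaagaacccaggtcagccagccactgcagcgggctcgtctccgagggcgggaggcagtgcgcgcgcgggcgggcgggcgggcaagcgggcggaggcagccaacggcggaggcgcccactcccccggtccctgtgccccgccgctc
Rbfox1, first start: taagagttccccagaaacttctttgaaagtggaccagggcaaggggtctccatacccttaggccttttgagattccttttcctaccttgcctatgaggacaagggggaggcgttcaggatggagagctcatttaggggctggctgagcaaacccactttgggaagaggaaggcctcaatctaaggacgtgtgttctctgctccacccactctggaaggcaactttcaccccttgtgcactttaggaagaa
Rbfox1, second start: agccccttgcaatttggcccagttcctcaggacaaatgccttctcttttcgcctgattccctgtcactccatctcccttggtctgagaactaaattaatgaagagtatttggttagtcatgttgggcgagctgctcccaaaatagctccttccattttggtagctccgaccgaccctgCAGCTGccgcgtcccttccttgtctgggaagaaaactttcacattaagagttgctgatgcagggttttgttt
Rbfox3: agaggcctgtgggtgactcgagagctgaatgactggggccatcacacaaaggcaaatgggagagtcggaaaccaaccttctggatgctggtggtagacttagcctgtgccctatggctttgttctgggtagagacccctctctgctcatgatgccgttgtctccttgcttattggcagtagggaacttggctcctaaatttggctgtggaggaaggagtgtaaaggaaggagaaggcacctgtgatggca

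The Ptbp1 and Ptbp2 windows held more CpG dinucleotides than those of Rbfox1 and Rbfox3. Ptbp1 had 17 and Ptbp2 had 23, against 2 and 6 at the starts of Rbfox1 and 3 at that of Rbfox3, while the median over 32851 mouse windows of the same length was 6. The division does not follow the early and late groups as a whole. Elavl3 had 20, Nova1 had 11 and Nova2 had 10, the 6 overlapping or neighbouring windows of Elavl2 had 10 to 21, and the 4 windows of Elavl4 had 3 to 14. RefSeq windows matched 9 of the 10 genes, all but Rbfox2.

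Motif matches were few. CACGTG occurred once, in the Ptbp1 window, 39 bases before the start site, and 6.02% of all windows hold it. CAGCTG occurred in the window of the second Rbfox1 start, in those of Elavl3 and Nova1 and in 2 overlapping windows of Elavl4, and 13.0% of all windows hold it. The Gli motif GACCACCCA (both strands, 0.225% of all windows) and the E2F motifs TTTCCCGC, TTTGGCGC and TTTCGCGC (both strands, 1.53% of all windows) were in none of the 18 windows of these genes. No motif overlapped another in these windows. A match describes the letters only.

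The 3 tumours were compared with the cerebellum first. Ptbp1 and Elavl2 rose, Rbfox1 and Rbfox3 fell, and the other 6 factors did not pass the test. The test was limma's moderated fit over all 19938 genes, and a gene passed with a Benjamini-Hochberg adjusted p under 0.05. At that threshold 6.70% of all genes were higher and 9.30% lower in the tumours, against 2 and 2 of the 10 factors, which makes 4 of 10 against 16.0% of all genes in either direction. Over all genes the count of 3191 became 1565 without the PtchLacZ/+ tumour and 6010 without the 2-month SmoM2 tumour. All spread comes from the 3 tumours, and the single cerebellum is assumed to vary like them. In these bulk tissues, fewer cells of a type and less RNA per cell cannot be told apart.

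**Figure D1:**
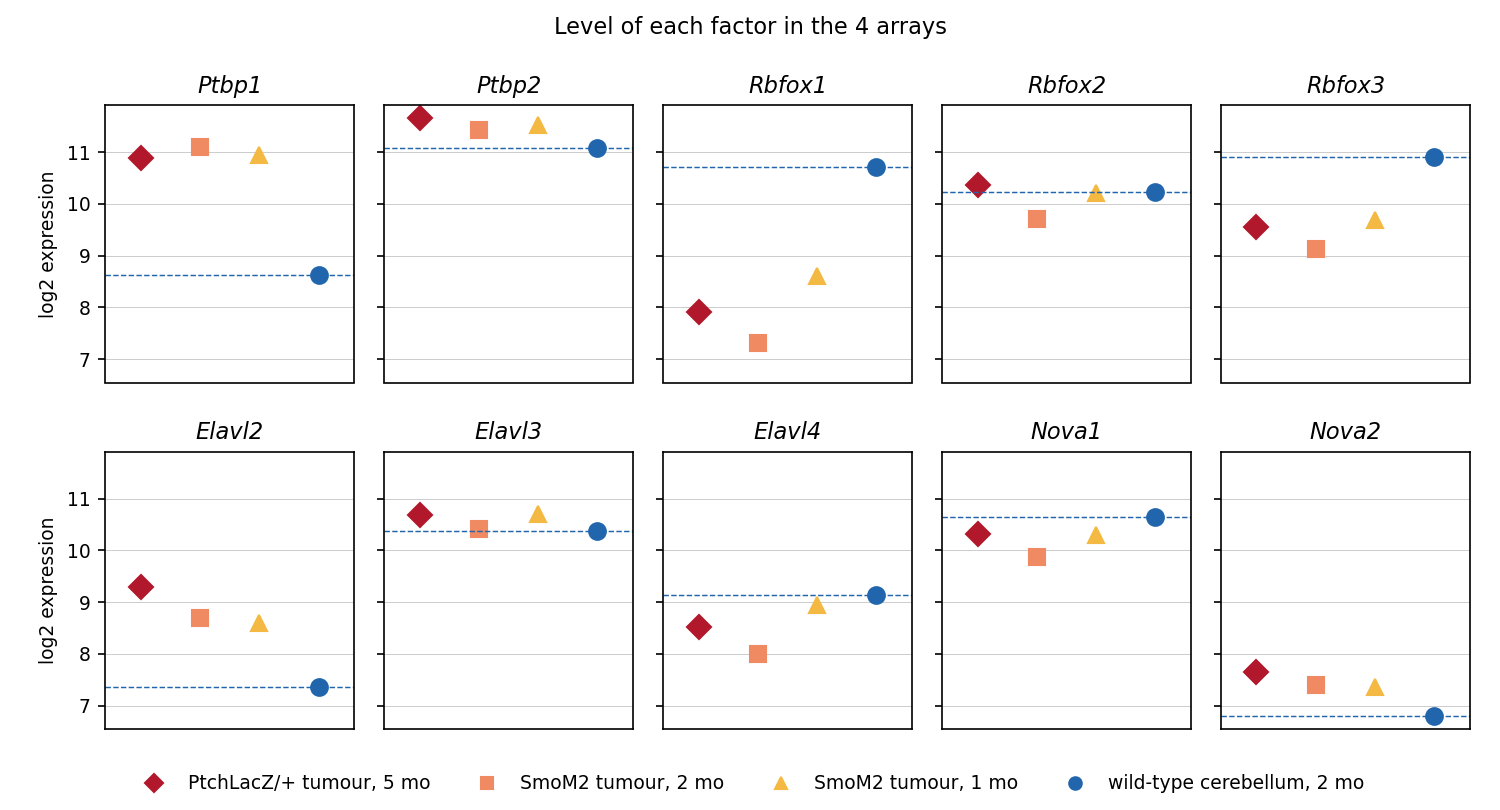
Log2 expression of the 10 factors, 1 panel per gene, with 1 point for each array in the order PtchLacZ/+ tumour, SmoM2 tumour at 2 months, SmoM2 tumour at 1 month and wild-type cerebellum; the dashed line marks the cerebellum. Ptbp1 lies at 10.89 to 11.10 in the tumours and at 8.63 in the cerebellum, and Rbfox1 at 7.30 to 8.61 in the tumours and at 10.70 in the cerebellum. Levels of different genes come from different probes and are not comparable.

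Ptbp1, on chromosome 10, was at 10.89 on the log2 scale in the PtchLacZ/+ tumour, 11.10 and 10.94 in the 2-month and 1-month SmoM2 tumours, and 8.63 in the cerebellum. The tumours lay close together and all far above the cerebellum. The mean was 10.98 ± 0.11 in the tumours (SD, n = 3), and Ptbp1 rose by 2.35 ± 0.18 (limma standard error) over the cerebellum, a 5.09-fold difference (limma adjusted p = 0.00436). Of all genes, 98.4% had a smaller or more negative difference. A further probe set annotated to Ptbp1 alone read 8.94 in the PtchLacZ/+ tumour, 9.40 and 8.82 in the 2-month and 1-month SmoM2 tumours, against 6.71 in the cerebellum, a difference of 2.35 ± 0.30 (limma adjusted p = 0.0430 over all probe sets). Whether this probe set reads the Ptbp1 transcript alone or another locus was not examined, so its value is not independent support.

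Ptbp2, the neural paralogue on chromosome 3, was high in every array. Its level was 11.66 in the PtchLacZ/+ tumour, 11.42 and 11.53 in the 2-month and 1-month SmoM2 tumours, and 11.09 in the cerebellum. All 3 tumours were above the cerebellum, but by far less than for Ptbp1. The difference was 0.45 ± 0.19 with a 95% interval of -0.03 to 0.93 (limma adjusted p = 0.190). The change of Ptbp1 exceeded that of Ptbp2 by 1.68 in the PtchLacZ/+ tumour and by 2.14 and 1.87 in the 2-month and 1-month SmoM2 tumours. An exact two-sided permutation over the 4 arrays gives p = 0.25 for that excess, the smallest value that 3 arrays against 1 allow. The same p was found for all 7 pairs of related factors compared in this way, so adjustment over them leaves it at 0.25.

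The Rbfox genes did not move as a family. Rbfox1, on chromosome 16, was at 7.90 in the PtchLacZ/+ tumour, 7.30 and 8.61 in the 2-month and 1-month SmoM2 tumours, and 10.70 in the cerebellum. Every tumour was at least 2 log2 units below the cerebellum. Through the probe sets used, the SmoM2 tumours differed from each other more than for any other factor. Rbfox1 fell by 2.77 ± 0.51, which is 6.80-fold lower in the tumours (limma adjusted p = 0.0261), and only 1.21% of all genes had a more negative difference. The call was lost without the PtchLacZ/+ tumour (difference -2.75, adjusted p = 0.0631).

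Rbfox3, on chromosome 11, was at 9.55 in the PtchLacZ/+ tumour, 9.12 and 9.69 in the 2-month and 1-month SmoM2 tumours, and 10.90 in the cerebellum. The tumours did not reach the cerebellum, and the 2-month SmoM2 tumour was again the lowest. Rbfox3 fell by 1.45 ± 0.27, which is 2.73-fold lower (limma adjusted p = 0.0273), and this call too was lost without the PtchLacZ/+ tumour (difference -1.50, adjusted p = 0.0740). Rbfox2, on chromosome 15 and the member of the family that is also used outside the nervous system, was at 10.35 in the PtchLacZ/+ tumour, 9.71 and 10.21 in the 2-month and 1-month SmoM2 tumours, and 10.23 in the cerebellum. Tumours and cerebellum overlapped. The difference was -0.13 ± 0.30 with a 95% interval of -0.90 to 0.63 (limma adjusted p = 0.837).

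Within each tumour the 3 Rbfox genes kept the same order of change. The change of Rbfox1 minus that of Rbfox2 was -2.93 in the PtchLacZ/+ tumour and -2.88 and -2.08 in the 2-month and 1-month SmoM2 tumours. The change of Rbfox3 minus that of Rbfox2 was -1.49, -1.26 and -1.20 in the same order. Both have the smallest exact two-sided permutation p that the design allows (p = 0.25).

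Of the neuronal Elav-like genes, Elavl2 (HuB) rose and the other two did not pass. Elavl2, on chromosome 4, was at 9.29 in the PtchLacZ/+ tumour, 8.68 and 8.59 in the 2-month and 1-month SmoM2 tumours, and 7.35 in the cerebellum. All tumours were above the cerebellum, the PtchLacZ/+ tumour most. The rise was 1.50 ± 0.32, a 2.83-fold difference (limma adjusted p = 0.0401), and it missed the threshold without the PtchLacZ/+ tumour (difference 1.28, adjusted p = 0.0551).

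Elavl3 (HuC), on chromosome 9, a gene switched on early in neuronal differentiation, was at 10.68 in the PtchLacZ/+ tumour, 10.42 and 10.71 in the 2-month and 1-month SmoM2 tumours, and 10.37 in the cerebellum. The lowest tumour lay within 0.05 of the cerebellum. The difference was 0.23 ± 0.20 with a 95% interval of -0.29 to 0.75 (limma adjusted p = 0.546). Elavl4 (HuD), also on chromosome 4, was at 8.51 in the PtchLacZ/+ tumour, 7.99 and 8.95 in the 2-month and 1-month SmoM2 tumours, and 9.14 in the cerebellum. All tumours were below the cerebellum, but the spread between them was wide, and the difference was -0.66 ± 0.39 with a 95% interval of -1.65 to 0.34 (limma adjusted p = 0.355). The change of Elavl2 exceeded that of Elavl4 by 2.57 in the PtchLacZ/+ tumour and by 2.48 and 1.42 in the 2-month and 1-month SmoM2 tumours (exact two-sided permutation p = 0.25, the smallest possible).

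The Nova genes pointed in opposite directions and neither passed. Nova1, on chromosome 12, was at 10.32 in the PtchLacZ/+ tumour, 9.88 and 10.30 in the 2-month and 1-month SmoM2 tumours, and 10.65 in the cerebellum. All tumours were below the cerebellum, with a difference of -0.49 ± 0.24 and a 95% interval of -1.11 to 0.14 (limma adjusted p = 0.274). A further Nova1 probe set read 9.11 in the PtchLacZ/+ tumour, 7.81 and 9.52 in the 2-month and 1-month SmoM2 tumours, against 9.70 in the cerebellum, again lowest in the 2-month SmoM2 tumour, and the locus it reads was not examined either.

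Nova2, on chromosome 7, was at 7.66 in the PtchLacZ/+ tumour, 7.39 and 7.37 in the 2-month and 1-month SmoM2 tumours, and 6.79 in the cerebellum. All tumours were above the cerebellum. The difference was 0.68 ± 0.20 with a 95% interval of 0.16 to 1.20, but it did not pass after adjustment (limma adjusted p = 0.0904). Without the 2-month SmoM2 tumour it was 0.72 and passed (adjusted p = 0.0365).

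**Figure D2:**
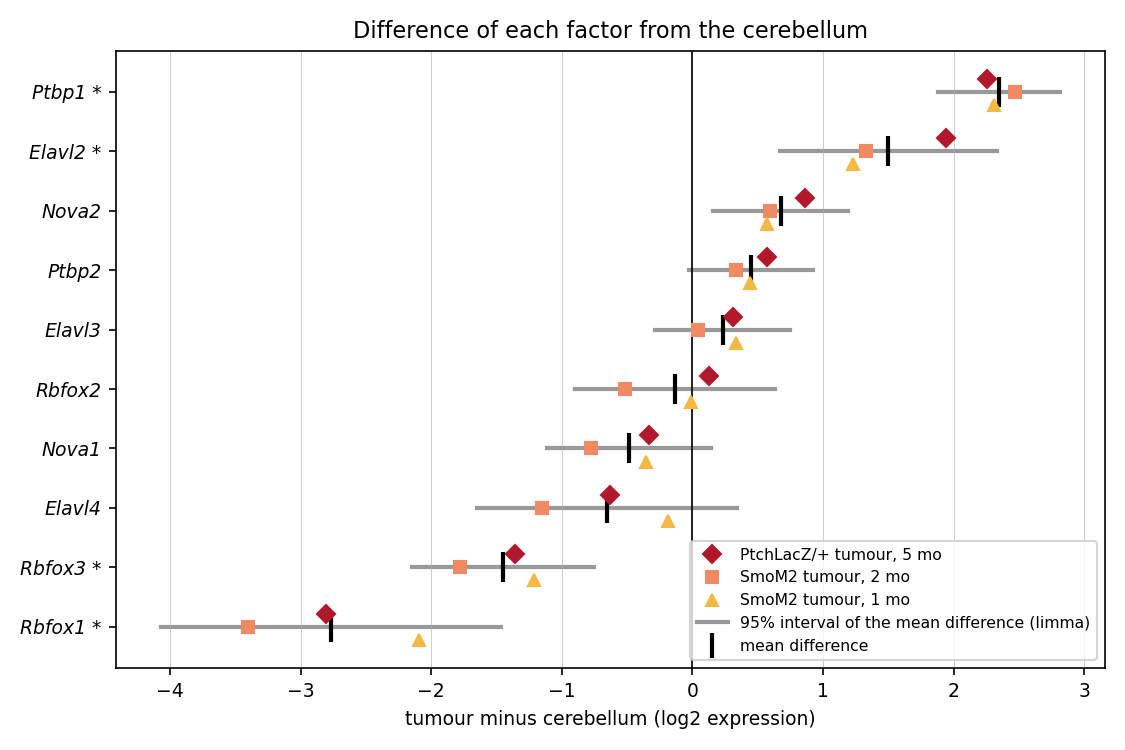
Difference of each tumour from the wild-type cerebellum in log2 expression (x axis) for the 10 factors (rows, ordered by mean difference), with 1 symbol per tumour, a black tick at the mean of the 3 tumours and a grey bar for its 95% interval from limma; an asterisk marks an adjusted p under 0.05. Ptbp1 and Rbfox1 stand at the ends with means of 2.35 and -2.77, and Rbfox2 has tumours on both sides of 0.

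Set side by side, the change of Ptbp1 lay above those of all 8 late factors in each of the 3 tumours, while the change of Ptbp2 lay above those of 6. Elavl2 and Nova2 were the late factors above Ptbp2. The median change of the late factors was -0.10 in the PtchLacZ/+ tumour and -0.65 and -0.10 in the 2-month and 1-month SmoM2 tumours, and their changes spanned 4.74, 4.73 and 3.33 log2 units in the same tumours. Their median minus the mean change of the early factors was -1.52, -2.05 and -1.48. Of the early factors Ptbp1 passed, and of the 8 late factors Elavl2 passed upward and Rbfox1 and Rbfox3 downward. Over all 10 factors, 5 were higher in every tumour than in the cerebellum and 4 were lower in every tumour, against 38.1% and 32.0% of all genes.

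Profiles over the 4 arrays were compared by Euclidean distance after each gene's own mean was subtracted. The closest pair was Ptbp2 and Nova2 (0.23), followed by Elavl3 and Ptbp2 (0.24) and by Rbfox2 and Nova1 (0.34). Rbfox1 stood farthest from the rest, with Rbfox3 as its nearest at 1.26, and the nearest to Ptbp1 was Elavl2 at 0.98. With 4 arrays these distances only describe the samples.

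Markers of cell types moved between the same samples. Among markers of mature granule neurons 5 of 7 fell, and each of the 7 was lower in every tumour, with a median level of 6.26 in the PtchLacZ/+ tumour, 7.85 and 8.39 in the 2-month and 1-month SmoM2 tumours, and 12.09 in the cerebellum. Gabra6, a receptor subunit of mature granule neurons, was at 4.64 in the PtchLacZ/+ tumour, under the lower quartile of genes in that array (5.14). Of 5 Purkinje cell markers 3 fell, with a median difference of -4.62, and all 5 inhibitory interneuron markers fell. NeuN is not found in Purkinje cells.

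The order of the tumours was not the same for all neuronal markers. The median difference of the mature granule neuron markers was -5.09 in the PtchLacZ/+ tumour, -4.26 and -3.62 in the 2-month and 1-month SmoM2 tumours, so by this median the PtchLacZ/+ tumour was the lowest, although Grin2c in that list was lowest in the 2-month SmoM2 tumour (-3.43, -3.85 and -2.96 in the same order). The median of the immature neuron markers was lowest in the 2-month SmoM2 tumour, at 1.25, 1.02 and 1.25, as was Neurod1 in that list (-0.89, -1.96 and -0.85). That median is the value of a single marker in each tumour. Sox4 in the same list was highest in the 2-month SmoM2 tumour (3.88, 4.17 and 3.82). For Rbfox1 the differences were -2.80, -3.40 and -2.09, and for Rbfox3 -1.36, -1.78 and -1.21, and the 2-month SmoM2 tumour was the lowest for both. All 7 granule progenitor markers rose (median 3.55), as did all 5 proliferation markers (median 5.10) and 4 of 6 microglia and macrophage markers (median 1.66). Of 7 immature neuron markers, 4 rose (median 1.17), among them the transcription factor Sox11 (5.19) and the microtubule gene Dcx (3.94). The list was not uniform. Stmn2 (-1.30) and Neurod1 (-1.23) were below the cerebellum in every tumour without passing, and Cntn2 (0.31) did not pass either. Of 7 astrocyte markers 3 fell (median -1.10), of 5 oligodendrocyte markers 4 fell (median -2.04), and none of 5 vascular markers passed (median -0.07). The part of these cell types in the changes of the 10 factors was not tested.

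**Figure D3:**
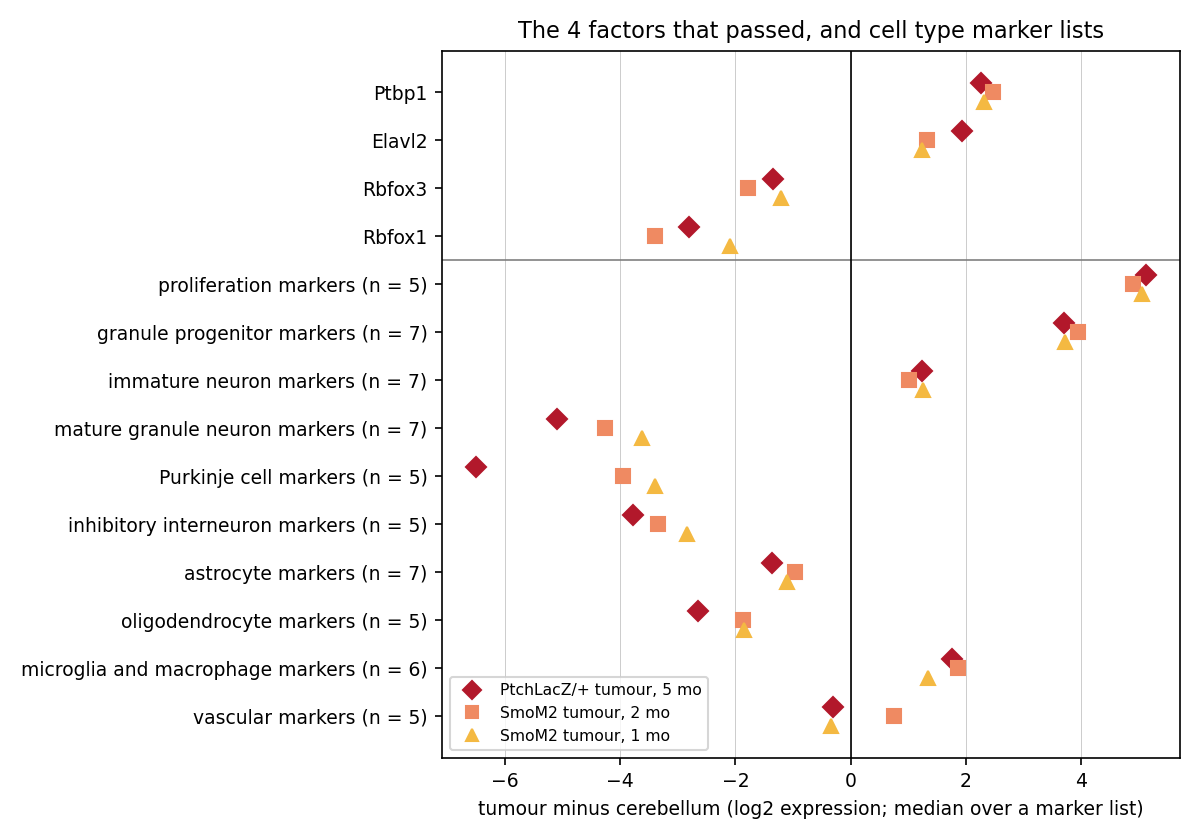
Tumour minus cerebellum in log2 expression for the 4 factors that passed (above the line) and the median over each cell type marker list (below it), with 1 symbol per tumour and the number of measured markers in brackets. The median of the mature granule neuron markers is lowest in the PtchLacZ/+ tumour (-5.09). The median of the immature neuron markers (1.02) and Rbfox1 (-3.40) are lowest in the 2-month SmoM2 tumour, though single markers of a list can differ in order.

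Other regulators of neural RNA processing moved in both directions. Of 21 measured, 6 rose and 2 fell, against 6.70% and 9.30% of all genes. Their median difference was 0.64 beside 0.04 over all genes. Paralogues of the early and Elav-like factors that are not specific to neurons were among those that rose, Ptbp3 by 1.19 ± 0.22 (limma adjusted p = 0.0256) and Elavl1 (HuR) by 0.98 ± 0.18 (adjusted p = 0.0243). Musashi 1 (Msi1), an RNA-binding protein of neural progenitors, rose by 1.31 ± 0.19 (adjusted p = 0.0143), and the STAR-family genes Khdrbs3 and Khdrbs1 (Sam68) rose by 1.45 ± 0.28 (adjusted p = 0.0294) and 0.88 ± 0.17 (adjusted p = 0.0292). Mbnl3, of the muscleblind splicing factors, rose by 1.60 ± 0.37 (adjusted p = 0.0466). Its cerebellar level of 4.78 was under the lower quartile of genes in that array (5.09) and may be background.

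The 2 that fell were Khdrbs2, the neuronal paralogue of Sam68, and Mbnl2, the muscleblind factor of the adult brain. Khdrbs2 was at 4.48 in the PtchLacZ/+ tumour, 4.74 and 4.81 in the 2-month and 1-month SmoM2 tumours, and 6.38 in the cerebellum, and it fell by 1.71 ± 0.21 (limma adjusted p = 0.00970). Its tumour levels lay under the lower quartile of genes in each array and may be background. Mbnl2 fell by 1.01 ± 0.22 (adjusted p = 0.0392). The CELF genes, a family of splicing factors of brain and muscle, had differences on both sides, with Celf3 at 1.59 ± 0.39 (adjusted p = 0.0555) and Celf4 at -0.90 ± 0.54 (adjusted p = 0.361).

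General splicing factors were mostly higher in the tumours. The list of SR and hnRNP genes, which also holds U2af1, U2af2, Sf1 and Sf3b1, had 31 of 34 genes measured. Of the 31, 9 rose and none fell, against 6.70% and 9.30% of all genes. In every tumour 28 were above the cerebellum, against 38.1% of all genes, and the median difference was 0.75. The largest differences were those of Hnrnpf (1.56 ± 0.26, limma adjusted p = 0.0203), Hnrnpab (1.56 ± 0.17, adjusted p = 0.00742) and Srsf6 (1.37 ± 0.21, adjusted p = 0.0175). On the other side Srsf5 differed by -0.82 ± 0.22 (adjusted p = 0.0714), Srsf12 by -0.51 ± 0.17 (adjusted p = 0.117) and Hnrnph2 by -0.02 ± 0.21 (adjusted p = 0.977). The difference of Ptbp1 (2.35), itself an hnRNP protein, was above the range of these 31 genes, which ran from -0.82 to 1.56.

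**Figure D4:**
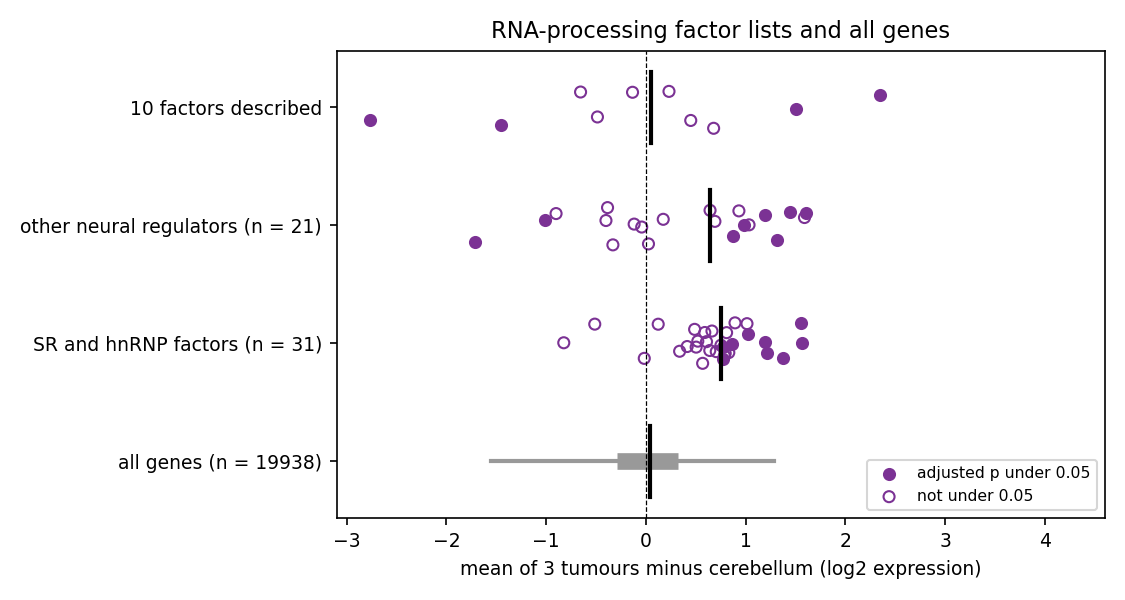
Mean of the 3 tumours minus the wild-type cerebellum in log2 expression. Rows are the 10 factors, the 21 other neural regulators, the 31 genes of the SR and hnRNP list, and all 19938 genes. Each point is 1 gene, filled where the adjusted p is under 0.05 and scattered vertically for legibility. For all genes, a thick bar runs from the lower to the upper quartile and a thin line from the 5th to the 95th percentile. Black ticks are medians, at 0.05, 0.64, 0.75 and 0.04.

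Genes that hold exons known to be regulated by these factors were read at the whole-gene level. Of 5 measured, Dlg4, which encodes the postsynaptic scaffold PSD-95, fell and Flna, the actin crosslinker filamin A, rose. Dlg4 was at 8.56 in the PtchLacZ/+ tumour, 8.59 and 8.74 in the 2-month and 1-month SmoM2 tumours, against 10.20 in the cerebellum, and it fell by 1.57 ± 0.18 (limma adjusted p = 0.00818). In mouse neurons PTBP1 and PTBP2 are known to repress an exon of Dlg4 whose skipping leads to decay of the transcript. Flna rose by 2.24 ± 0.23 (adjusted p = 0.00677). Gphn, encoding the inhibitory synapse scaffold gephyrin, differed by -0.92 ± 0.23 (adjusted p = 0.0585), Clta by -0.38 ± 0.18 (adjusted p = 0.239) and Src by 0.27 ± 0.20 (adjusted p = 0.474).

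The measured regulators known to act upstream of Ptbp1 gave no call. The REST complex and neuronal microRNA list held 13 genes, of which 8 were measured. None of the 8 passed, and the median difference was 0.48. Those not measured were all microRNA genes or their host genes, so the microRNAs were read only in part. Rest, a repressor of neuronal genes, differed by 0.52 ± 0.27 (limma adjusted p = 0.289), its corepressor gene Rcor1 by 1.01 ± 0.25 (adjusted p = 0.0572) and the microRNA gene Mir9-1 by 0.60 ± 0.83 (adjusted p = 0.723). The probe set of the microRNA gene Mir124a-2, the only miR-124 gene measured, differed by 0.02 (adjusted p = 0.957). It lay at 5.46 to 5.54 in all arrays, near the lower quartiles of genes (5.09 to 5.17). The probe sets are assigned to microRNA genes, so levels of the mature microRNAs are not known. Mir9-1 was at 6.82 in the PtchLacZ/+ tumour, 5.31 and 7.49 in the 2-month and 1-month SmoM2 tumours, and 5.94 in the cerebellum.

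The PtchLacZ/+ tumour was then compared with the SmoM2 tumours, to ask whether the tumour models differ in these factors. No factor passed, with an adjusted p = 1.00 for each in limma. At this design the fit called none of the 19938 genes (0%), and 280 genes (1.40%) but none of the 10 factors had an unadjusted p under 0.05. The fit has 1 residual degree of freedom and assumes that the PtchLacZ/+ tumour varies like the SmoM2 pair. The largest difference was that of Elavl2, at 9.29 in the PtchLacZ/+ tumour against a mean of 8.64 in the SmoM2 tumours, or 0.66 ± 0.26 with a 95% interval of -0.01 to 1.32. For Ptbp1 the interval was -0.81 to 0.55 around -0.13, and for Rbfox1 it was -1.57 to 1.46 around -0.06. The PtchLacZ/+ tumour lay above both SmoM2 tumours for 5 factors (Ptbp2, Rbfox2, Elavl2, Nova1 and Nova2) and below both for Ptbp1, against 23.8% and 31.1% of all genes.

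The SmoM2 tumours were set side by side by age, with no test, since each age has 1 array. Age therefore cannot be told apart from differences between the samples or arrays. The 2-month array had the lowest median of the 4 over all probe sets (6.12) and the highest over genes (6.82). The 2-month tumour was lower than the 1-month tumour for 7 of the 10 factors, against 40.1% of all genes. Through the probe sets used, Rbfox1 had the largest difference, with 7.30 at 2 months against 8.61 at 1 month (-1.31). Only 0.883% of all genes had a more negative one. Rbfox1 was also the only factor that differed by at least 1 log2 unit through these probe sets. Of all genes, 2.05% were lower by that much and 3.71% differed by it in either direction. Elavl4 followed (-0.96), then Rbfox3 (-0.57), Rbfox2 (-0.50) and Nova1 (-0.42), each of which, like Rbfox1, was lower in the 2-month SmoM2 tumour than in any other array. That position was taken by 5 of the 10 factors and by 20.2% of all genes. The factors higher at 2 months were Ptbp1 (0.16), Elavl2 (0.10) and Nova2 (0.02), all close to the median of all genes (0.08). The further Nova1 probe set differed by more than Rbfox1, with 7.81 at 2 months against 9.52 at 1 month.

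Immature neuron and mature granule neuron markers were mostly lower in the 2-month tumour too. Of 7 immature neuron markers, 6 were lower at 2 months than at 1 month, with a median difference of -0.94, and of 7 mature granule neuron markers 6 were lower, with a median of -0.66. Other neuronal lists were more even. Of 5 Purkinje cell markers 3 were lower (median -0.09), and of 5 inhibitory interneuron markers 3 were lower (median -0.29). The 21 other neural regulators include genes not specific to neurons. Of these 21, 18 were lower, against 40.1% of all genes, and the median of the 21 was -0.17. Vascular markers went the other way, with 4 of 5 higher at 2 months and a median of 1.14. The part of these markers in the differences of the factors was not tested.

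**Figure D5:**
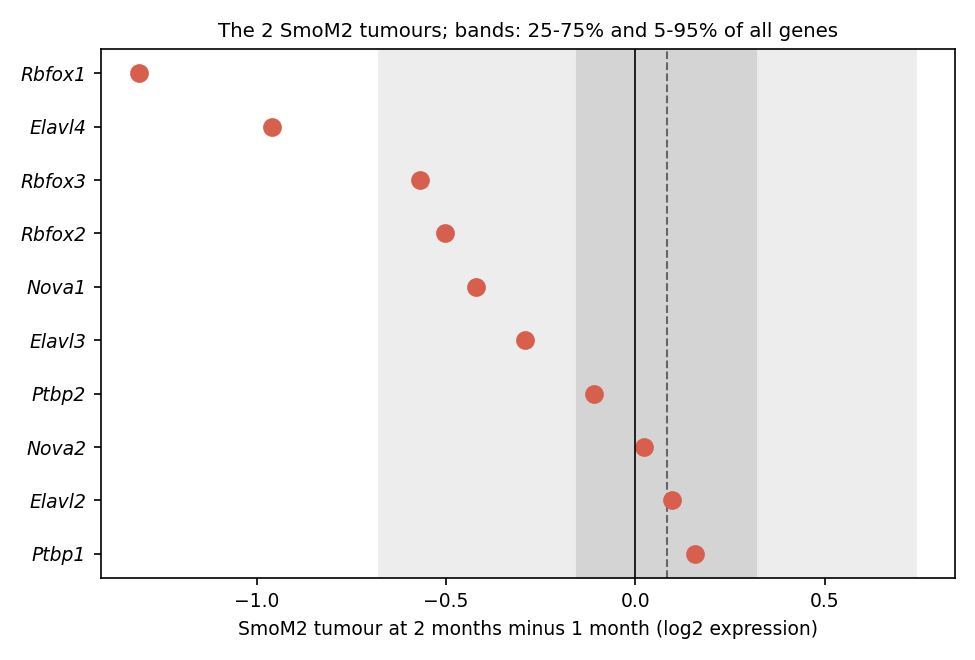
SmoM2 tumour at 2 months minus SmoM2 tumour at 1 month in log2 expression (x axis) for the 10 factors (rows), with 1 array per age. The dark band spans the quartiles of all genes and the light band their 5th to 95th percentiles, and the dashed line is their median of 0.08; Rbfox1 (-1.31) and Elavl4 (-0.96) lie outside the light band.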

How the data were processed

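Log2 expression values per probe set were deposited by the authors as 1 table of 35557 probe sets and 4 arrays. Per the submitters' processing notes the tool was Affymetrix Expression Console. Its version, summarisation and normalization were not stated in the sources used here. Values from 2.71 to 14.9 point to a log2 scale, which no header states. No value was filtered or renormalized, and the number of arrays limits the precision. Medians over genes were 6.73 to 6.82. Without detection calls, levels under an array's lower quartile of genes (5.09 to 5.17) may be background.

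The platform annotation gave 1 symbol to 21789 probe sets, several to 1621 and none to 12147. Of the first, 21698 matched RefSeq (GRCm38.p6) by Entrez identifier. The probe set with the highest mean stood for each of 19938 genes. This concerned 999 genes, among them Ptbp1 and Nova1.

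Tumours were compared with the cerebellum, and the PtchLacZ/+ with the SmoM2 tumours, by lmFit and eBayes in limma version 3.58.1 (R version 4.3.3). The fits had 2 and 1 residual degrees of freedom and were adjusted over all genes. The fit of tumours against cerebellum was also run on simulated data. There every array, the cerebellum included, was drawn with the spread of the tumours, so that run could not check this assumption. Errors after ± are standard errors from limma, or SD where so written. The factors and the 4 gene lists and 10 marker lists were chosen with earlier results of these data known. Genes that could be named were all 10 factors, the 3 genes at each end of every other list by tumour minus cerebellum difference, passing or not, and any passing gene of the neural regulator, exon target and upstream lists. Alternatives changed normalization, prior variance, filter, probe set choice, features tested and tumours included. Sequences are from RefSeq.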

Additional observations from a re-analysis of the deposited data

Results flagged for a closer look

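Rbfox2 had the PtchLacZ/+ tumour and the SmoM2 tumours on opposite sides of the cerebellum. It differed from the cerebellum by 0.13 in the PtchLacZ/+ tumour and by -0.52 and -0.01 in the 2-month and 1-month SmoM2 tumours. The test of the PtchLacZ/+ against the SmoM2 tumours gave 0.39 ± 0.32 (limma adjusted p = 1.00), so the difference between the tumour models did not pass.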

How the results depend on the processing

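Ptbp1 passed under all 12 alternatives of tumours against cerebellum (2.29 to 2.39, adjusted p = 0.000814 to 0.0267). Rbfox1, Rbfox3 and Elavl2 each passed under 9 of 12, with adjusted p up to 0.0847, 0.0836 and 0.109. With all 35557 probe sets tested, 1616 features and 1 factor passed, against 3191 genes and 4 factors. The fit of 3 groups, SmoM2 minus cerebellum, called 1565 genes and 1 factor and equals leaving out the PtchLacZ/+ tumour. Leaving out each tumour gave 1565 (without the PtchLacZ/+ tumour) to 6010 (without the 2-month SmoM2 tumour) genes, 1 to 5 factors (Nova2 was added without the 2-month SmoM2 tumour), and Rbfox2 values from -0.27 to 0.058, above 0 only without the 2-month SmoM2 tumour. In PtchLacZ/+ against SmoM2, genes called were 14 after quantile normalization, 4 above the median level and 1 with a trended prior variance, against 0, and no factor passed. Rbfox1 was 0.0021 there with arrays centred on their medians, against -0.06. The late minus early change kept its sign in every tumour under the 4 alternatives run. Centring the arrays cannot alter this quantity, and among the factors probe set choice alters only Ptbp1 and Nova1. Rbfox1, Rbfox3 and Elavl2 have 1 probe set each, so the alternatives of probe set choice left their differences unchanged. The 12 alternatives are therefore not 12 separate checks. The cause of lost calls was not tested. No paired analysis was possible because the labels pair no samples. Leaving out a SmoM2 tumour in PtchLacZ/+ against SmoM2 leaves no residual degrees of freedom and was not run.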
